A study of Mus musculus with 281 samples.

Results

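Claudins are the membrane proteins that seal and select at tight junctions, and 10 genes of the family were followed here in single cells of the stria vascularis of the mouse cochlea. The members, Cldn3, Cldn4, Cldn6, Cldn7, Cldn8, Cldn9, Cldn11, Cldn12, Cldn14 and Cldn18, were taken by name from a table of 47752 genes. The list was drawn up with earlier results of these data known. Single cells had been picked by micropipette from the stria of 129S6 mice and sequenced with Smart-Seq2, a method that amplifies whole transcripts and carries no molecular identifiers. Slc26a4-/- mice (P24 to P44) gave 69 of the cells, Slc26a4+/- mice (P26 to P33) gave 40, and the remaining cells were from Slc26a4+/+ mice (P22 to P42), so that the genotypes share the strain and differ at the gene for pendrin, the anion exchanger of spindle and root cells. The labels name no mouse, so each genotype counted as 1 sample, no difference was tested, and the spread is given over cells and over collection sessions (cells of 1 genotype, run date, collection day and age).

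Claudins of neighbouring cells bind one another and polymerise into strands that close the space between the cells, and the claudins a cell makes decide which ions can pass. In the stria, tight junctions of the marginal cells face the endolymph, and tight junctions of the basal cells, built on Cldn11, keep the fluid around the intermediate cells apart from the perilymph. Spindle and root cells lie at the edges of the stria and in the outer sulcus. Mutations in CLDN9 and CLDN14 are known causes of hearing loss, and mice without Cldn11 are deaf.

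By GRCm38 coordinates, Cldn6 (chromosome 17, 23679249 to 23682446, plus strand) and Cldn9 (23682584 to 23684026, minus strand) are adjacent genes that point towards each other. Cldn3 (chromosome 5, 134986214 to 134987472, plus strand) and Cldn4 (134945119 to 134946934, minus strand) lie 39279 bases apart on opposite strands. Cldn3, Cldn4, Cldn8 and Cldn9 have a single exon each, and Cldn11 has 3. Of the genes with several transcripts, Cldn7 and Cldn14 each had nearly all counts on 1 transcript (98.5% and 99.5%). The members share few stretches of sequence: of the 31-base words of the Cldn3 transcript 1.22% occur in another gene, which is the highest share of the 10, and Cldn3 overlaps an exon of Wbscr25, so a small part of its reads could be split between genes.

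RefSeq promoter windows (250 bases before to 50 after the start, GRCm38.p6) were matched for 8 of the 10 claudins, with Cldn8 and Cldn9 not matched. An E-box, the hexamer CAGGTG or its complement CACCTG that repressors and activators of epithelial genes bind, was found 8 times, in the windows of 5 of the 8 (Cldn3, Cldn4, Cldn6, Cldn7 and Cldn14). At least 1 was held by 22.6% of all genes and by 20.2% of all promoters. Cldn7 and Cldn14 have several windows, and only 1 window of each holds an E-box. Counted from the start used for its window, the Cldn3 site lay at 32, those of Cldn4 at -14 and 12. Those of Cldn6 lay at -93 and 41, those of Cldn7 at -97 and -57, and that of Cldn14 at -31. By the coordinates of the whole gene, only the Cldn4 site at -14 lay before its gene, and the others lay within theirs. A grainyhead-like motif, AACCNGTT or AACNGGTT, was in 0 of the 14 claudin promoters and in 2.09% of all promoters. The 8 sites are shown because they are the sequence feature that these 5 members have in common, and a match is a description of letters only. Each site is printed 5′ to 3′ on the strand of its gene with the E-box in capitals.
Cldn3, chr5:134986233-134986262, plus strand: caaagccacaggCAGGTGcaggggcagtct
Cldn4, chr5:134946931-134946960, minus strand: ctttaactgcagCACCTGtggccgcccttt
Cldn4, chr5:134946906-134946935, minus strand: cctttcttgttgCAGGTGcaggcaggaaag
Cldn6, chr17:23679260-23679289, plus strand: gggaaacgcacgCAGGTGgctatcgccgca
Cldn6, chr17:23679393-23679414, plus strand: cagtctcttttgCAGGTGagcc
Cldn7, chr11:69965312-69965341, plus strand: tttcttcctcttCACCTGgacgaggagggg
Cldn7, chr11:69965352-69965381, plus strand: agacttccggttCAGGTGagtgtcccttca
Cldn14, chr16:93929831-93929860, minus strand: ggggccaaccatCAGGTGgacggctcgggg

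Cells were grouped by clustering without the claudins, the other tight junction genes or Slc26a4, and clusters were named only from marker genes. This gave 34 spindle-like, 37 root-like, 21 marginal-like and 85 intermediate-like cells, and 2 clusters that stay unnamed. Total counts ran from 1848 to 5452520 per Slc26a4+/+ cell (median 1166720, with 20 cells under 100000), and the medians were 2221967 in Slc26a4+/- and 1226474 in Slc26a4-/- cells. The cell with 1848 counts was spindle-like. Levels are CPM, a gene's counts scaled to the same total in each cell, and intervals for shares of cells are exact 95% binomial intervals that cover counting error only.

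In Slc26a4+/+ mice the claudins were mainly epithelial, with high mean levels in spindle-like, root-like and marginal-like cells and far lower ones in intermediate-like cells. Of the 9 members with a mean of at least 10 CPM in a cell type, 7 had their highest mean in spindle-like cells (26.7% of all genes at that level did so), and 4 of these stood at least 2-fold above the next cell type (8.48% of all genes). Those were Cldn4, Cldn6, Cldn7 and Cldn11. Cldn12 and Cldn14 had their highest mean in root-like cells, where 29.1% of all genes peaked, and both were at least 2-fold above the next cell type (11.6% of all genes). No member peaked in marginal-like or intermediate-like cells, where 19.8% and 24.4% of all genes did. An area under the curve (AUC, the chance that a spindle-like cell is above another named cell) of at least 0.9 was found for 3 members and for 0.404% of all genes.

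**Figure D1:**
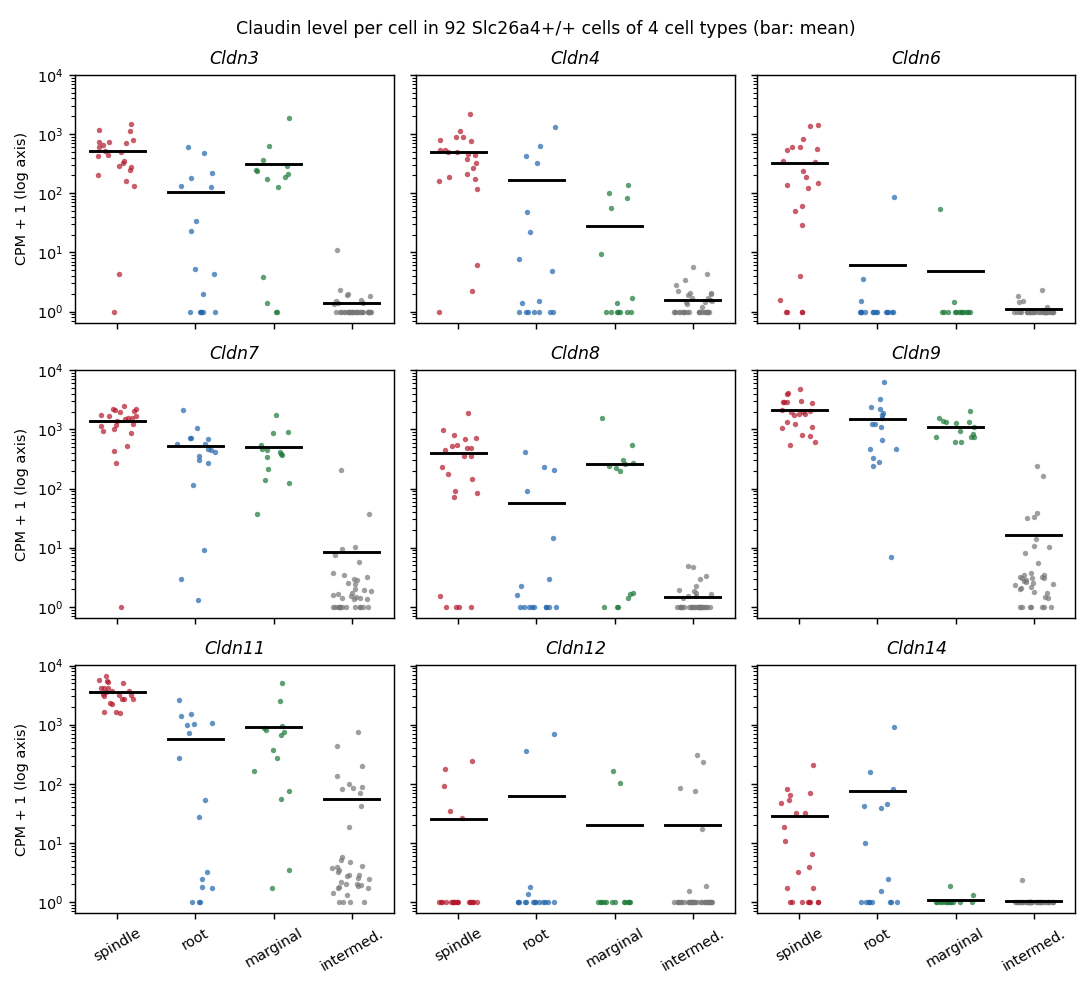
CPM + 1 (log axis) of 9 claudins in each Slc26a4+/+ cell, grouped by cell type, with a point for a cell and a bar for the mean over cells. Cldn11 means run from 53.8 CPM in intermediate-like to 3553 CPM in spindle-like cells, and for Cldn3, Cldn4, Cldn6 and Cldn8 the intermediate-like mean is below 1 CPM.

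Cldn11, the claudin of basal cell and myelin strands, was the most abundant member in spindle-like cells. Its level over 23 Slc26a4+/+ spindle-like cells ran from 1573 to 6545 CPM, with a median of 3298 CPM. Session means were 3933 ± 1033 CPM (SD, 12 sessions) in spindle-like and 672 ± 725 CPM (SD, 8 sessions) in marginal-like cells. They ran from 2363 to 5554 CPM in spindle-like and from 0.747 to 2087 CPM in marginal-like cells. A root-like session of 1 cell reached 2588 CPM, and the spindle-like session at 2363 CPM was 1 cell with 24550 total counts. The AUC of Cldn11 was 0.982, and the mean in spindle-like cells was 3.94-fold that in marginal-like cells. The summed level of the basal cell markers Sox8, Nr2f2 and Slc2a1 in these spindle-like cells had a median of 12.1 CPM (0 to 541 CPM); its part in the Cldn11 level was not tested.

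Cldn9, Cldn7 and Cldn3 are claudins of many epithelia. Cldn9 was at 541 to 4868 CPM in every spindle-like cell (median 1936), and its means were 2099, 1487 and 1089 CPM in spindle-like, root-like and marginal-like cells. Neighbours in that order differed by less than the larger SD of their session means, whereas the marginal-like and intermediate-like (15.4 CPM) session means did not overlap. Cldn7 was higher in spindle-like cells (1351 ± 607 CPM, 12 sessions) than in root-like cells (473 ± 362 CPM, 12 sessions), and its root-like and marginal-like means, 516 and 500.3 CPM, were nearly equal. Cldn3 had a mean of 512 CPM in spindle-like, 309 CPM in marginal-like and 105.7 CPM in root-like cells, and its session means were 539 ± 262.4 CPM in spindle-like (12 sessions) and 220.005 ± 295.4 CPM in marginal-like cells (8 sessions). Cldn3 was detected in 22 of 23 spindle-like cells (95.7%, interval 78.1 to 99.9%) and in 11 of 17 root-like cells (64.7%, interval 38.3 to 85.8%). In 10 of 38 intermediate-like cells at least 1 Cldn3 count was found, but the highest of these cells had 9.77 CPM.

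Cldn4, Cldn6 and Cldn8 varied more from cell to cell. Cldn4, a claudin of tight epithelia that can conduct chloride, had a mean of 494 CPM in spindle-like cells (0 to 2168 CPM, median 448) and of 165.5 CPM in root-like cells. Cldn6, a claudin of embryonic epithelia, had a mean of 328 CPM in spindle-like cells and of 5.16, 3.87 and 0.0871 CPM in root-like, marginal-like and intermediate-like cells. The spindle-like mean of Cldn6 was 53.3-fold the root-like mean, and 96.5% of the root-like sum came from 1 of 17 cells. Cldn6 was counted in 19 of 23 spindle-like cells (82.6%, interval 61.2 to 95.05%), and its session means ran from 0 to 1356 CPM, so that its difference from the next cell type was smaller than the SD of session means. Cldn8, a barrier claudin of the kidney's distal tubule, was at 392 CPM in spindle-like and 257.8 CPM in marginal-like cells, a difference below the SD of session means (533 and 521 CPM).

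Cldn12 and Cldn14 had low means that rested on few cells, and with the mean of log2 values or without run 1 their highest level was not in root-like cells. Cldn14, a claudin of hair and supporting cell junctions, had a mean of 75.2 CPM in root-like cells, of which 70.9% came from 1 cell at 907 CPM, and of 23.2 CPM without that cell. In spindle-like cells it was at 27.04 CPM and was counted in 15 of 23 cells, and in marginal-like and intermediate-like cells it was below 0.1 CPM. Cldn12, which lacks the binding motif that ties most claudins to scaffold proteins, had means of 61.8, 24.9, 19.1 and 18.8 CPM in root-like, spindle-like, marginal-like and intermediate-like cells; 1 root-like cell at 693.9 CPM carried 66.04% of the root-like sum. Cldn12 was counted in 4 of 17 root-like and in 7 of 38 intermediate-like cells, and its intermediate-like mean was close to its marginal-like mean. Cldn18, the claudin of stomach and lung epithelium, had no count in the named cells. Its 0 of 23 spindle-like Slc26a4+/+ cells allow a share of up to 14.8% of cells with a count, a limit that covers counting error only and does not bound the share of cells that express the gene. A single count was found in all cells analysed, in an unnamed cluster.

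Compared per length, as TPM, a scale that also divides by transcript length so that genes can be set against each other, Cldn11, Cldn9 and Cldn7 made up most of the claudin RNA of spindle-like Slc26a4+/+ cells. Cldn11 was at 2764 TPM, 32.3% of the sum of 8543 TPM over 35 claudin genes. Cldn9 was at 2253 TPM (26.4%) and Cldn7 at 1674 TPM (19.6%). The 10 members together made up 97.4% of the sum. In root-like cells the sum was 3171 TPM, of which Cldn9 made up 46.8%, and in marginal-like cells it was 3005 TPM, of which Cldn9 made up 37.9%. Intermediate-like cells had a sum of 98.1 TPM.

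**Figure D2:**
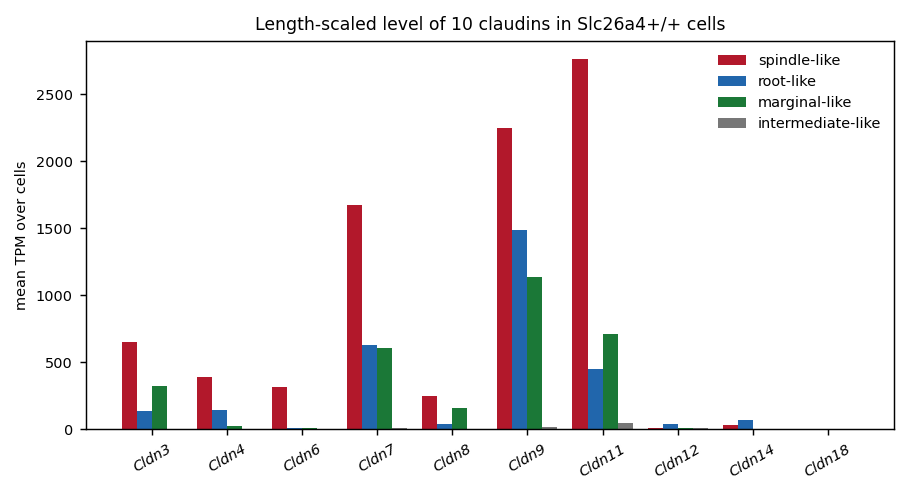
Mean TPM (linear axis from 0) of the 10 claudins in Slc26a4+/+ cells of 4 cell types, with bars for means over cells. Cldn11 leads in spindle-like cells with 2764 TPM, and Cldn9 takes 46.8% of the claudin sum in root-like cells.

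Single spindle-like cells held many claudins at once. With at least 10 counts as detection, the median spindle-like cell held 7 of the 10 claudins, and 20 of 23 held 6 or more. The median was 4 in root-like, 4.5 in marginal-like and 0 in intermediate-like cells. After thinning each cell to 100000 counts, which left out 2 of 23 spindle-like and 1 of 17 root-like cells, the medians were 7, 4, 5 and 1. Within a cell type, pairs of claudins went together or apart. Over 36 pairs of members in 21 spindle-like cells the correlation of log2(CPM + 1) ran from -0.66 to 0.45 with a median of 0.06. Root-like cells gave -0.39 to 0.61 (median 0.08, 28 pairs) and marginal-like cells -0.59 to 0.69 (median 0.16, 21 pairs). These describe cells that share runs and sessions.

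**Figure D3:**
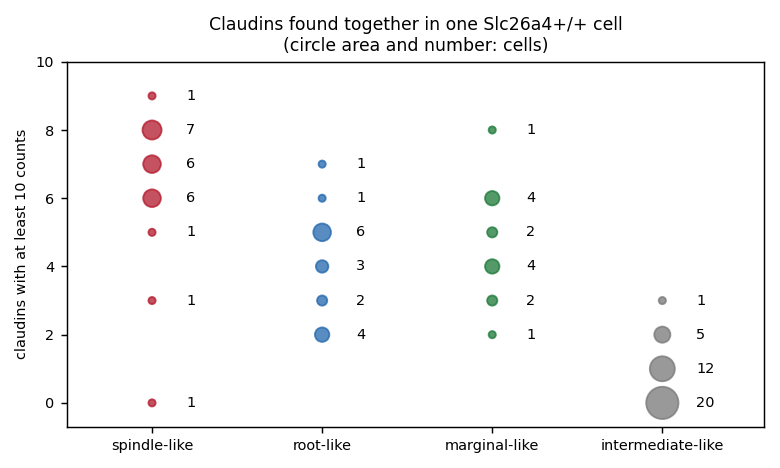
Number of the 10 claudins with at least 10 counts (y axis, 0 to 9) in each Slc26a4+/+ cell by cell type, with circle area and number giving how many cells. Spindle-like cells centre on 7, root-like cells on 4, marginal-like cells on 4.5, and 20 of 38 intermediate-like cells hold 0.

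The genes whose pattern was most like that of each claudin were found by Pearson's r of log2(CPM + 1) over 89 Slc26a4+/+ cells of the named types, with 9718 genes compared. Cldn7 and Cldn9 were each other's closest gene (r = 0.893), and the next for both was Epcam, the epithelial adhesion molecule (r = 0.843 with Cldn7 and 0.839 with Cldn9). For Cldn3 the closest genes were St14, a membrane serine protease (r = 0.809), and Cldn7 (r = 0.784). Cldn6 went most with P2rx2, Wfdc18 and Ptprz1 (r = 0.778, 0.768 and 0.767), of which P2rx2, an ATP-gated channel, and Wfdc18 were among the markers of the spindle-like name. Cldn4 went most with the small heat shock protein gene Hspb1 (r = 0.765), Cldn8 with the keratin gene Krt18 (r = 0.691) and Cldn11 with Cldn3 (r = 0.738). The best match of Cldn14 was Rcsd1 (r = 0.61) and that of Cldn12 was Oraov1 (r = 0.534). These correlations describe the cells of 4 types together, which share runs and differ in depth.

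Of 48 other tight junction genes listed, 44 were in the table and 28 reached 10 CPM in a named cell type of Slc26a4+/+ mice. Their highest mean was in spindle-like cells for 8, in root-like cells for 10, in marginal-like cells for 9 and in intermediate-like cells for 1. Among the membrane proteins, the tetraspanning occludin gene Ocln had means of 330 CPM in marginal-like, 177.2 CPM in spindle-like and 132.5 CPM in root-like cells. The tricellular junction genes Lsr and Ildr1 were highest in root-like cells (467 and 339 CPM), and Marveld2, which encodes tricellulin, in marginal-like cells (83.3 CPM). F11r, the junctional adhesion molecule A gene, had its highest mean in spindle-like cells (481 CPM), as did Cldn23 (215.6 CPM), which had no count in marginal-like cells. Jam2, another junctional adhesion molecule, was the gene whose mean was highest in intermediate-like cells (1160 CPM). Of the plaque genes, Cgn and Cgnl1, which encode cingulin and paracingulin, were highest in marginal-like cells (234.4 and 167.1 CPM). Of the other genes with a mean of at least 50 CPM, Cldnd1, Inadl, Mpp5, Magi3 and Amotl1 were highest in spindle-like cells (54.7 to 227.4 CPM), Cxadr, Pard3 and Pard6b in root-like cells (82.3 to 157.8 CPM), and Marveld3, Crb3 and Magi1 in marginal-like cells (50.6 to 130 CPM).

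The targeted gene was checked in each genotype. In spindle-like cells Slc26a4 was at a mean of 912, 511 and 91.2 CPM in Slc26a4+/+, Slc26a4+/- and Slc26a4-/- cells, with medians of 692, 511 and 0 CPM. In root-like cells the means were 989, 568 and 1188 CPM and the medians 33.5, 1.18 and 894 CPM, so that Slc26a4 RNA was still counted in root-like cells labelled Slc26a4-/-. Counts per gene do not separate the part of the gene that the allele lacks, and the genotype in what follows rests on the labels. Genotype and run date overlap in part: the 9 Slc26a4-/- spindle-like cells were all sequenced on 1 run date, run 2, which holds 2 Slc26a4+/+ spindle-like cells.

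In spindle-like cells of Slc26a4-/- mice, Cldn3 and Cldn6 had lower means and Cldn4 a higher mean than in Slc26a4+/+ mice. Of 9 members at 10 CPM, 2 were at least 2-fold lower and 1 at least 2-fold higher, against 33.9% and 22.1% of all genes, so the share of claudins past 2-fold was not above that of genes in general. Cldn3 was at 0 to 565 CPM in 9 Slc26a4-/- cells with a median of 9.81 CPM, and at 0 to 1451 CPM in 23 Slc26a4+/+ cells with a median of 440 CPM. Its session means were 0 to 191.2 CPM (3 sessions) against 242.7 to 1180 CPM (12 sessions) and did not overlap, as for 0.439% of all genes. The means, 95.5 and 512 CPM, gave a log2 difference of -2.41. Within run 2 the difference was -1.80 (9 against 2 cells), where the median over all genes tested was 3.24. The 2 Slc26a4+/+ cells of run 2 were P40 to P42 and the 9 Slc26a4-/- cells P24 to P31. Genotype and age cannot be told apart there. Cldn6 was counted in 3 of 9 Slc26a4-/- cells (33.3%, interval 7.49 to 70.1%) against 19 of 23, with means of 95.2 and 328 CPM.

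Cldn4 stood at a mean of 1432 CPM in the Slc26a4-/- spindle-like cells against 494 CPM, but 1 of the 9 cells, at 11436 CPM, carried 88.8% of the sum, and the mean of the other cells was 181.1 CPM. Its medians, 114.02 and 448 CPM, were in the opposite order to its means. For Cldn7, Cldn8, Cldn9, Cldn11, Cldn12 and Cldn14 the means of the 2 genotypes differed by less than 2-fold. For Cldn12 and Cldn14 this rested on 1 Slc26a4-/- cell each, with 95.2% and 100% of the sum. Without the highest cell of each genotype, the Slc26a4-/- and Slc26a4+/+ means were 1.15 and 14.9 CPM for Cldn12. For Cldn14 they were 0 and 18.9 CPM. Cldn11, the most abundant, was at 1.45 to 5249 CPM in Slc26a4-/- (median 1917) against 1573 to 6545 CPM, and the mean log2 difference was -0.66. The summed level of the 6 spindle cell markers was also lower in the Slc26a4-/- cells (4621 to 22244 CPM against 10361 to 110873 CPM, with 0 of 6 markers at 0). Marginal cell markers summed to a median of 8214 CPM (8.73 to 18117 CPM) in the Slc26a4-/- and 3576 CPM (898 to 17705 CPM) in the Slc26a4+/+ spindle-like cells. The median depth was 561315 against 1820555 counts, and the part of all of these in the claudin differences was not tested.

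**Figure D4:**
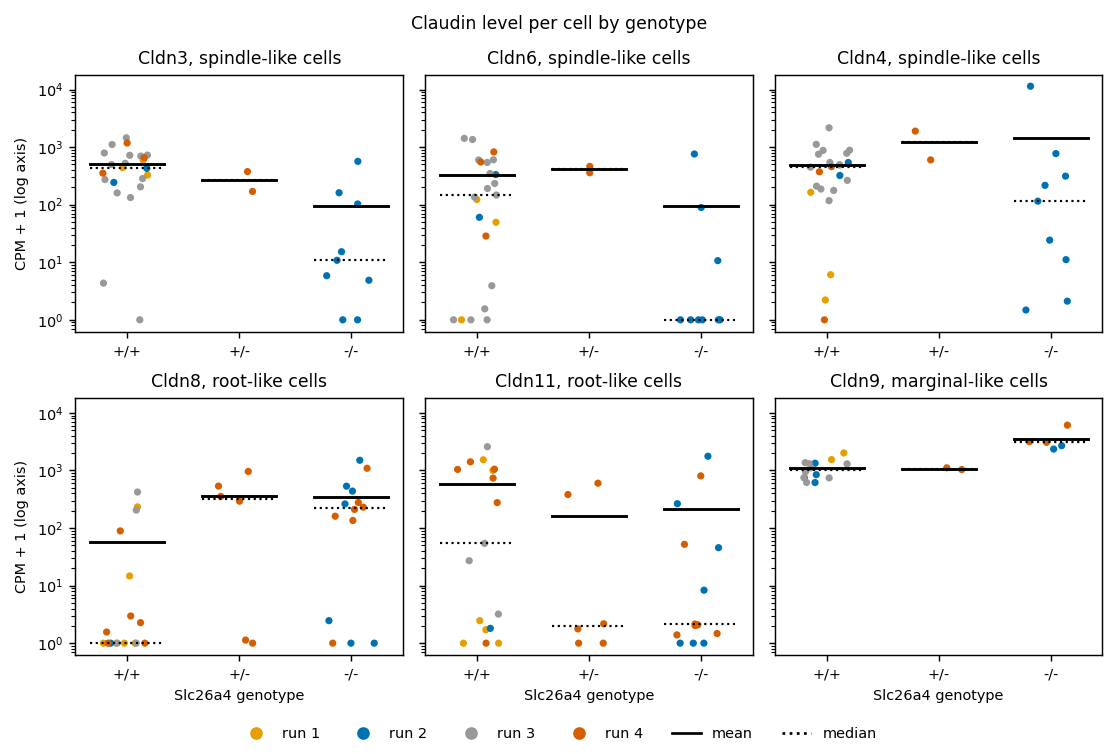
CPM of single cells by genotype for Cldn3, Cldn6 and Cldn4 in spindle-like cells, Cldn8 and Cldn11 in root-like cells and Cldn9 in marginal-like cells, with colour for run date, a solid bar for the mean and a dotted bar for the median. Cldn9 in the 5 Slc26a4-/- marginal-like cells (2353 to 6129 CPM) is above each Slc26a4+/+ cell (616 to 2017.7 CPM), and for Cldn4 in spindle-like cells 1 Slc26a4-/- cell at 11436 CPM sets the mean.

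In root-like cells Cldn8 was higher and Cldn11 and Cldn14 were lower in Slc26a4-/- than in Slc26a4+/+ mice. Of 8 members at 10 CPM, 1 was at least 2-fold higher and 2 at least 2-fold lower (21.8% and 28.2% of all genes). Cldn8 was at 0 to 1503 CPM in 14 Slc26a4-/- cells (median 219.5) and at 0 to 421 CPM in 17 Slc26a4+/+ cells (median 0). Its means were 345 and 56.6 CPM, a log2 difference of 2.59, and at least 10 counts were found in 10 of 14 against 4 of 17 cells. Within run 4, the run date with most root-like cells of both genotypes, Cldn8 was at 300.2 CPM in 7 Slc26a4-/- against 15.3 CPM in 6 Slc26a4+/+ cells, and the session means did not overlap (218.2 to 333 against 0.608 to 44.1 CPM), as for 18.8% of all genes there. The median depth of these run 4 cells was 2620021 counts in Slc26a4-/- and 1292672 in Slc26a4+/+, and its part in the shares of cells was not tested.

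Cldn11 was at 0 to 1765 CPM in root-like Slc26a4-/- cells (median 1.11) and at 0 to 2588 CPM in Slc26a4+/+ cells (median 53.2), with means of 210.04 and 572 CPM. Within run 4 its session means, 10.8 to 403 (2 sessions) and 563 to 1042 CPM (3 sessions), did not overlap either, as for 18.8% of all genes there. In run 2 the single Slc26a4+/+ root-like cell had 0.807 CPM of Cldn11 against a mean of 297.3 CPM in 7 Slc26a4-/- cells. The median log2 difference over all genes tested was 4.41 in that comparison, so it cannot settle the direction of Cldn11. The lower Cldn14 mean of Slc26a4-/- root-like cells, 13.9 against 75.2 CPM, rested on the Slc26a4+/+ cell at 907 CPM, and its medians, 5.52 and 0.557 CPM, were in the opposite order. Cldn9, the most abundant claudin of these cells, was at a mean of 2306 CPM against 1487 CPM, and Cldn7 at 593 CPM against 516 CPM. The summed level of the 6 root cell markers had medians of 20042 and 12204 CPM, and its part in the differences was not tested.

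In marginal-like cells Cldn9 was the claudin whose levels did not overlap between Slc26a4-/- and Slc26a4+/+. It was at 2353 to 6129 CPM in 5 Slc26a4-/- cells, at 616 to 2017.7 CPM in 14 Slc26a4+/+ cells, and at 1036 and 1111.2 CPM in 2 Slc26a4+/- cells. The ranges over Slc26a4-/- and Slc26a4+/+ cells did not overlap, as for 0.0995% of all genes, and neither did the session means (0.42% of all genes). The mean was 3.20-fold higher, a log2 difference of 1.68, and within run 2 it was 2524 CPM (2 cells) against 886 CPM (4 cells). Of 7 members at 10 CPM, 3 were at least 2-fold higher (Cldn4, Cldn9 and Cldn12, against 26.1% of all genes) and 1 lower, Cldn8 (26.4% of all genes). Cldn8 had counts in 1 of 5 Slc26a4-/- cells, at 317 CPM, and in 11 of 14 Slc26a4+/+ cells (median 210.5 CPM). Cldn8 reached 10 CPM in 8 of the 14 Slc26a4+/+ cells and in 1 of the 5 Slc26a4-/- cells. Within run 2, the run that holds both genotypes here, its means were 158.46 CPM (2 cells) and 282.57 CPM (4 cells), which is less than 2-fold. The higher Cldn4 mean (87.5 against 27.1 CPM) rested on 1 cell at 387 CPM, and Cldn12 was counted in 3 of 5 against 2 of 14 cells. Cldn11 and Cldn7 were at 1594 and 496 CPM, against 900.3 and 500.3 CPM. Marginal cell markers summed to 33816 to 46432 CPM in Slc26a4-/- and 26582 to 71232 CPM in Slc26a4+/+ marginal-like cells, ranges that overlap.

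In intermediate-like cells the claudins stayed low in each genotype. Of 3 members at 10 CPM, Cldn9 was past 2-fold, at a mean of 33.1 CPM in 27 Slc26a4-/- against 15.4 CPM in 38 Slc26a4+/+ cells (13% of all genes were higher and 17.4% lower). Its medians were 2.57 and 1.79 CPM, and 1 Slc26a4-/- cell at 670.2 CPM set the mean. Cldn11 was at 51.2 and 53.8 CPM.

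Slc26a4+/- cells of 3 types were few, and all 40 Slc26a4+/- cells came from run 4. Root-like cells numbered 6, against 17 Slc26a4+/+ root-like cells from runs 1 to 4, of which 6 were from run 4. Run and genotype are therefore mixed in this comparison, and the part of the run was not tested. Of 8 members, 2 were at least 2-fold higher (Cldn8 and Cldn12) and 3 lower (Cldn4, Cldn11 and Cldn14), against 24.8% and 32.5% of all genes. Cldn8 was at 0 to 961 CPM in the 6 Slc26a4+/- cells with a mean of 357 CPM, the log2 difference from Slc26a4+/+ being 2.63, and Cldn11 had a mean of 163.9 CPM. The Cldn12 mean rested on 1 of the 6 cells, at 849.5 CPM, and the lower Cldn14 mean on the Slc26a4+/+ cell at 907 CPM, and with medians Cldn4 and Cldn14 were higher in the Slc26a4+/- cells. The Slc26a4+/- and Slc26a4-/- comparisons share the Slc26a4+/+ cells. The 2 spindle-like Slc26a4+/- cells had Cldn11 at 2939 and 5529 CPM, Cldn9 at 3667 and 3733 CPM and Cldn3 at 168.99 and 374.9 CPM, inside the range of Slc26a4+/+ cells. In 20 intermediate-like Slc26a4+/- cells Cldn3 reached 256.996 CPM in 1 cell and was below 2 CPM in the others.

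Of the other tight junction genes at 10 CPM, 12 of 28 were at least 2-fold lower in root-like Slc26a4-/- cells and 2 were higher (28.2% and 21.8% of all genes), with a median log2 difference of -0.82 against -0.10 over all genes tested. In spindle-like cells 11 of 26 were lower and 5 higher (33.9% and 22.1% of all genes). Lsr, the tricellular junction gene, was at 154.7 CPM in root-like Slc26a4-/- cells against 467 CPM and lower in both runs that hold both genotypes (run 2 with 1 Slc26a4+/+ cell), as was the junctional adhesion molecule gene Jam3 (0.340 against 14.1 CPM). Amotl1, which encodes an angiomotin-like junction protein, was at 125.3 against 18.1 CPM overall. Its log2 difference was 5.63 within run 4, where the median over all genes tested was 0.07, and 4.99 within run 2, where the comparison with 1 Slc26a4+/+ cell gave a median of 4.41 over all genes tested. In intermediate-like cells Cgnl1 (15.6 against 76.2 CPM) and Mpp5, which encodes a polarity scaffold (35.3 against 59.2 CPM), were lower in both runs, by less than 2-fold overall for Mpp5. With spindle-like and root-like cells as a single group, Lsr and the polarity gene Pard6b were lower in both runs. The log2 differences were -1.75 and -1.44 for Lsr and -3.53 and -3.25 for Pard6b. Run 2 held 16 Slc26a4-/- and 3 Slc26a4+/+ cells of this group, with a median of 1.95 over all genes tested. Run 4 held 7 and 9, and there all Slc26a4-/- cells were root-like whereas 3 Slc26a4+/+ cells were spindle-like. The part of this mix of types was not tested.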

How the data were processed

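Single-cell RNA-seq of 281 cells was analysed. Per the labels and the study's methods, the authors used kallisto on the mouse transcriptome (mm10, GRCm38), and its version is not given in the sources used here. The authors deposited estimated counts and TPM per transcript for each cell, and a gene table of estimated counts whose values equal the transcript counts summed per gene and cut to whole numbers. Of its 298 columns, 17 belonged to no listed sample and were not used.

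Counts were divided by each cell's total to give CPM. Cells were clustered with Seurat 5.3.0 in R 4.3.3 (2000 variable genes, of which 12 claudin, tight junction or Slc26a4 genes were removed, 10 principal components, resolution 0.8), and a cluster took the name of a marker list if 80% or more of the cells had that list as their top score, 3 or more of its markers were detected, and the 10 leading genes held no more markers of any other list. Cells had been picked singly, and no doublet caller was run. Differences are log2 ratios of mean CPM with 1 CPM added, among genes with a mean of at least 10 CPM in a group; 2-fold is the threshold for a call. With 1 sample per genotype and no mouse named, no p-value is given. Sessions were read from the genotype, run date, age and 4-digit number in the profile name. Reading that number as the collection day is an inference, and a session can hold cells of several mice. PCR reads without molecular identifiers are not independent molecules. The computations, in Python 3.11.15, were tested on simulated data.

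All 10 claudins are named. For each claudin the 3 genes with the highest correlation were found, and some or all of them are named. Other tight junction genes are named where their mean reached 50 CPM in a Slc26a4+/+ cell type, or where they passed 2-fold the same way in both runs that hold both genotypes. A gene that meets this rule is not reported here. The members and lists were chosen with earlier results of these data known. Alternatives covered cell filters, TPM, pseudocounts, log means, medians, cell type assignment, runs, collection days and single cells.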

Additional observations from a re-analysis of the deposited data

Results flagged for a closer look

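Cldn8 moved in opposite directions in 2 cell types. The log2 difference between Slc26a4-/- and Slc26a4+/+ was 2.59 in root-like cells (14 against 17 cells) and -2.01 in marginal-like cells (5 against 14 cells). Only 1 of the 5 Slc26a4-/- marginal-like cells had counts of Cldn8, and 3 of the 5 came from run 4, which holds no Slc26a4+/+ marginal-like cell. Within run 2 the marginal-like means were 158.46 and 282.57 CPM (2 against 4 cells), a log2 difference of -0.83. The difference between the cell types was not tested.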

How the results depend on the processing

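The labels name no mouse, so no analysis paired by mouse was possible. By the inferred collection day, both genotypes of a named cell type were collected together on 2 days, in intermediate-like cells. Cldn9 was there at a log2 difference of 5.69 (7 Slc26a4-/- and 4 Slc26a4+/+ cells), with means of 98.2 and 0.917 CPM. A single Slc26a4-/- cell at 670.2 CPM set the higher mean. Among the repeats of the cell type values, 1 moved by more than the spread between sessions and 6 turned in direction, those of Cldn12 and Cldn14. Among the repeats of the genotype values, 10 moved and 17 turned. The others stayed within that spread. The cause was not tested. The spread was the largest SD of log2 session means among the groups compared. Session means differed widely for some members (Cldn4 in root-like cells, 0 to 1338 CPM), so a large shift can stay within it. A value counted as turned only where its main log2 difference was at least 1 in size. Smaller differences could change sign without being counted, so these counts do not measure stability. The median over cells and the collection days were added after seeing the data.

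With 4 principal components, 2 claudins instead of 4 stood 2-fold above the next type in spindle-like cells. The number highest in root-like cells fell from 2 to 0 with the mean of log2 values, with medians and without run 1, and to 1 with 20 principal components. Without a minimum level, 22 other tight junction genes instead of 8 were highest in spindle-like cells. Summed over cell types, claudins at least 2-fold lower in Slc26a4-/- numbered 5, against 8 without the highest cell of each group and 3 at resolution 0.4, where spindle-like cells merged with an unnamed cluster and gave no value (3 in the main setting for the same cell types). Claudins at least 2-fold higher numbered 6, against 13 within run 2, of which 7 came from a comparison with 1 Slc26a4+/+ root-like cell, and 3 within run 4, which holds both genotypes in root-like and intermediate-like cells (2 over all runs there). The median of 4 claudins per intermediate-like cell with 1 count became 0 with 10 counts and 1 after thinning.

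The root-like excess of Cldn12 was -0.25 with log2 means, -4.73 without run 1 and -0.063 with 20 components, and that of Cldn14 was -0.10, -0.85 without run 1 and -1.33 with medians. In Slc26a4-/- spindle-like cells Cldn4 was at -1.61 with log2 means, -1.20 without the highest cells and -1.96 with medians. In root-like cells Cldn11 was at 7.37 within run 2, and Cldn14 at 2.39 within run 2, 0.74 within run 4 and 2.07 with medians. The run 2 values rest on 1 Slc26a4+/+ cell, and the median over all genes tested was 4.41 there. In Slc26a4+/- root-like cells Cldn4 was at 1.85 with medians, Cldn12 at -4.54 without the highest cells, and Cldn14 at 0.12, 1.27, 2.87 and 0.34 with log2 means, run 4, medians and 20 components. Cldn4 in marginal-like cells was at -0.54 without the highest cells and -0.25 with medians, and Cldn9 in intermediate-like cells at -0.092 without the highest cells and -2.89 within run 4. The isoform share of Cldn18 was not run, since the gene had 1 count.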

Other observations

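The 17 cells with Crhbp, Vmo1 and Slc26a7 as leading genes were given no cell type name. Its 11 Slc26a4+/+ cells had mean levels of 658 CPM for Cldn9, 617 CPM for Cldn7, 447 CPM for Cldn11, 179.4 CPM for Cldn8 and 147.9 CPM for Cldn3. Cldn9 and Cldn7 were counted in all 11 of these cells, and Cldn6 had a mean of 25.2 CPM. Slc26a4 itself was at a mean of 334 CPM there.

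A cluster of 87 cells also stayed unnamed. Its leading genes by fold were the erythroid genes Slc4a1, Hbb-bs and Hba-a1, but 63.2% of its cells scored highest for the intermediate cell markers. Over its 69 Slc26a4+/+ cells, intermediate cell markers summed to a median of 43419 CPM and erythroid markers to a median of 74.2 CPM (0 to 197242 CPM). The 69 Slc26a4+/+ cells had a mean of 271.6 CPM and a median of 4.56 CPM of Cldn11, and Cldn9 had a mean of 74.7 CPM and a median of 3.87 CPM. In these cells Cldn3, Cldn4 and Cldn6 had a median of 0 CPM.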
